A study of Arabidopsis thaliana with 12 samples.

Results

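*psbA* is the chloroplast gene for D1, a core protein of the photosystem II reaction centre. In *Arabidopsis thaliana* its coding region lies on the minus strand of the plastid genome (TAIR10), at nt 383 to 1444, so that the mRNA runs from high to low coordinates. Here its RNA was followed along its length in libraries that recovered RNA with a YFP-tagged protein (precipitates) and in the extracts from which they were taken (inputs). The members were the minus-strand segments that overlap nt 351 to 1716, a window that holds the coding region, the leader 5′ of it and a short stretch past the stop codon. They were 11 of 555 segments in the precipitates and 4 of 574 in the inputs. In the input, 1 further segment, nt 807 to 6628, was left out because it is longer than 5000 nt and also covers *trnK-UUU* and *matK*, so that the 5′ part of *psbA* had no input value of its own.

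*psbA* mRNA is among the most abundant mRNAs of the chloroplast and is heavily translated in the light, when damaged D1 is replaced by newly made protein. It has no intron and is transcribed from its own promoter. Proteins that bind its leader are known to promote its translation and stability.

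There were 12 libraries from seedlings 10 days old, with 3 pools of 10 g per line and a precipitate and an input library from each pool. One line carried *At*MKIP1-YFP, the partner of Maturase K, under the *UBQ10* promoter in the *mkip1-2* mutant. The control line carried *At*BE3-YFP, a plastid starch-branching enzyme, under the same promoter in Col-0, and therefore kept its own untagged MKIP1. Both lines were grown under Basta selection, and each promoter drives the tagged protein throughout the plant rather than in 1 cell type. The inputs were treated with DNase, depleted of rRNA and fragmented, and the precipitates were not, so that levels in the 2 fractions differ in preparation as well as in source. Both baits are nuclear-encoded and the tables hold plastid reads only, so neither the bait's own mRNA nor a marker of the tissue could be read from them.

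Mapped reads numbered 119799 to 319005 in a precipitate library and 2213500 to 2868106 in an input library. Segments of 7 loci that the bait binds, *trnK-UUU* among them, took 66.9% ± 0.284 (SD, n = 3) of all segment counts with *At*MKIP1-YFP as bait and 16.4% ± 3.11 with *At*BE3-YFP, against 8.36% ± 0.623 and 8.30% ± 0.530 in the inputs. These are shares of counts, not of reads, since a read is counted in each segment it overlaps. Some of these loci are cut finely, *trnA* into 71 precipitate segments over 881 nt. Counts per mapped read averaged 2.08 in the *At*MKIP1-YFP precipitates and 1.26 in the *At*BE3-YFP precipitates, against 1.09 and 1.08 in the inputs. Repeat counting was thus unequal between the baits, and no lower limit was computed for these shares. *psbA* levels are given below in CPM, counts scaled to 1000000 mapped reads, in which a gain in one place lowers the rest. The median log2 fold change of the 127 precipitate segments outside these loci and outside *psbA* was -0.69, and the *psbA* values are set beside it. How much of the *psbA* difference follows from this shift was not tested apart from the scaling given with the results.

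Sequences are printed in the sense of the mRNA, 5′ to 3′, from the RefSeq plastid genome, whose coordinates are those of the files. The first set is shown because mean read density was far higher in the leader segment than in the segment 5′ of it. It holds the 60 nt directly 5′ of the leader segment, at nt 1513 to 1572, with the motifs TTGACA and TATACT in capitals, and the 30 nt around the start codon, at nt 1427 to 1456, with the codon in capitals.
Upstream of the leader: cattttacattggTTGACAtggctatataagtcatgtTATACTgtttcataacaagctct
Around the start codon: aaggattttaccATGactgcaattttagag
The motifs resemble both core elements of promoters read by the bacterial type of plastid RNA polymerase, and 18 nt separate them. The last base of TATACT is 17 nt from the leader segment. Of 258860 windows of 60 nt on both strands of the plastid reference, 1.23% held TTGACA, 1.72% held TATACT and 0.0135% held both, in any order and with any overlap allowed. The windows overlap one another, and the 35 that held both include those across the printed pair. Their share is therefore no measure of how rare the pair is elsewhere. A likeness of letters is a description only.

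The second set is shown because its members, adjacent segments, differed most in mean density within the coding region. The first is the segment at nt 630 to 770 and the second the segment next 3′ of it, at nt 549 to 629. Both are wholly coding, with a GC content of 37.6% and 40.7%.
Segment 5′ of the border: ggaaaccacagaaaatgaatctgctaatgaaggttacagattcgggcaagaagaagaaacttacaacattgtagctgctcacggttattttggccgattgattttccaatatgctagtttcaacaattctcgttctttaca
Segment 3′ of the border: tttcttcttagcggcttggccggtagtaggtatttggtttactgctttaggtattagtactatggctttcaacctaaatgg

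*psbA* RNA made up a large share of every precipitate, and a larger one in the control. Summed over its 11 segments, *psbA* counts came to 17.9%, 15.4% and 14.5% of the mapped reads in the 3 *At*MKIP1-YFP precipitates and to 30.9%, 28.9% and 31.0% in the 3 *At*BE3-YFP precipitates. These are upper limits, since a read is counted in each segment it overlaps. The largest sum over segments that no read of up to 60 nt can share gave lower limits of 8.76%, 7.69% and 7.21%, and of 16.1%, 14.3% and 16.7%. Under each limit the groups did not overlap. The upper limits were 15.9% ± 1.77 and 30.3% ± 1.18 (SD, n = 3), and the exact permutation test gave a two-sided p of 0.1, the smallest that 3 against 3 libraries can give.

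In the inputs the 4 segments, which cover only nt 84 to 806, came to 1.53%, 1.72% and 1.75% of mapped reads for *At*MKIP1-YFP and to 1.95%, 1.60% and 1.94% for *At*BE3-YFP. The groups overlapped (exact permutation test, two-sided p = 0.3). These shares cover less of the gene than those of the precipitates and are not set against them.

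**Figure D1:**
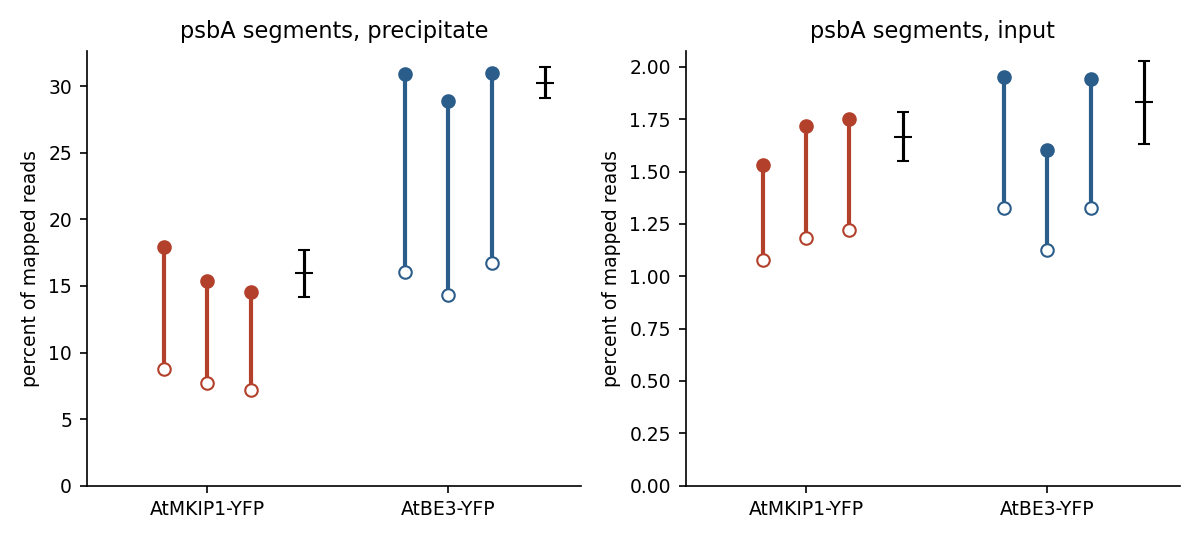
Percent of mapped reads in *psbA* segments for each library, with precipitates on the left and inputs (nt 84 to 806 only) on the right, on separate axes that start at 0. Filled points are upper limits, open points lower limits, and the black mark is the mean of the upper limits ± SD (n = 3): 15.9% and 30.3% in the precipitates, 1.67% and 1.83% in the inputs.

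To compare stretches of different length, CPM was divided by the segment length plus the read length less 1, with 39 nt taken as the read length; this quantity is called density here. Among the 28 protein-coding genes with precipitate segments of their own, *psbA* had the highest density with either bait, 99.9 ± 11.9 with *At*MKIP1-YFP and 190.7 ± 7.54 with *At*BE3-YFP. *rbcL*, which encodes the large subunit of Rubisco, had 19.7 ± 1.85 and 35.5 ± 2.44. *psbC*, which stood next to *psbA* in this order, rests on a single segment of 4 nt. In the inputs *psbA* was also first, of 41 genes, with 28.3 ± 2.10 and 31.2 ± 3.35, ahead of *rbcL* with 7.44 ± 1.04 and 7.27 ± 0.750. The lowest *psbA* library lay above the highest *rbcL* library in each of these 4 groups.

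The leader carried the densest coverage together with the start of the coding region. The leader segment, nt 1441 to 1512, runs from 68 nt upstream of the start codon into the codon itself. It had 18146, 16984 and 15722 CPM in the *At*MKIP1-YFP precipitates and 30070, 30842 and 39283 CPM in the *At*BE3-YFP precipitates. Its density was 1.32, 1.49 and 1.46 times that of the coding segments together in the former and 1.28, 1.41 and 1.70 times in the latter, so that the leader was above the coding mean in 6 of 6 libraries. The segment of 4 nt that follows the start codon, nt 1437 to 1440, had the highest density of all 11 with both baits, 181.0 ± 25.8 and 375.4 ± 86.6, but nearly all reads in so short a segment are shared with its neighbours. The next one, nt 1168 to 1436, had 154.3 ± 27.4 and 302.5 ± 22.6.

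Mean density was far lower 5′ of the leader segment. The segment upstream of it, nt 1513 to 1715, holds the motifs printed above and had a density of 8.74 ± 1.08 and 14.2 ± 0.746. The leader density was 14.7 to 21.7 times as high in the *At*MKIP1-YFP precipitates and 19.8 to 23.8 times as high in the *At*BE3-YFP precipitates. This step was present in 6 of 6 libraries and was larger than any other between adjacent segments within nt 351 to 1715.

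Within the coding region the density was lower in the 3′ part than near the start codon, without a steady fall, and had 1 deep trough. It was 119.4 ± 13.9 and 200.2 ± 23.6 at nt 815 to 1167, the longest segment, and 81.3 ± 7.46 and 196.2 ± 32.5 at nt 630 to 770. Between these lay a pair of short segments with 63.2 ± 5.61 and 123.9 ± 3.15 at nt 800 to 814 and 70.0 ± 6.05 and 122.5 ± 24.9 at nt 771 to 799. At nt 549 to 629, the second sequence of the pair printed above, it was 15.2 ± 1.95 and 28.2 ± 5.11. The segment at nt 630 to 770 exceeded it 5.30, 5.06 and 5.74 times in the *At*MKIP1-YFP precipitates. In the *At*BE3-YFP precipitates it exceeded it 5.89, 5.75 and 9.99 times, with replicate 3 well above the others. With read lengths of 18 and 60 nt in place of 39, these steps ranged from 4.72 to 10.5 times.

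In the inputs a thin segment lay within the 5′ part of that trough only. There the segment at nt 596 to 628 had a density of 7.37 ± 0.543 with *At*MKIP1-YFP and 6.91 ± 0.234 with *At*BE3-YFP. The segment 5′ of it, nt 629 to 806, had 36.8 ± 2.60 and 40.0 ± 3.25, which was 4.91 to 5.05 and 5.12 to 6.29 times as much. The segment 3′ of it, nt 461 to 595, had 26.2 ± 2.24 and 30.1 ± 4.94. The thin segments of both fractions thus overlapped at nt 596 to 628. As borders were drawn on the difference between baits, segment means do not place the nt at which coverage changes.

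The segment at the 3′ end, most of it coding, was less covered than the other coding segments together, though more than the trough. The segment at nt 351 to 548 crosses the stop codon and runs 32 nt past it. It had 12785, 13915 and 13118 CPM with *At*MKIP1-YFP and 28550, 25187 and 23172 CPM with *At*BE3-YFP. Its density was 0.524 ± 0.0796 and 0.524 ± 0.0515 times that of the other coding segments (n = 3 each). The stretch past the stop codon had no value of its own. Over nt 351 to 1512 the densest segment exceeded the thinnest 10.4 to 13.0 times in the *At*MKIP1-YFP precipitates and 9.80 to 20.7 times in the *At*BE3-YFP precipitates, where the upper value again belonged to replicate 3. With a read length of 18 nt these ranges were 17.1 to 21.3 and 16.2 to 34.1 times.

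**Figure D2:**
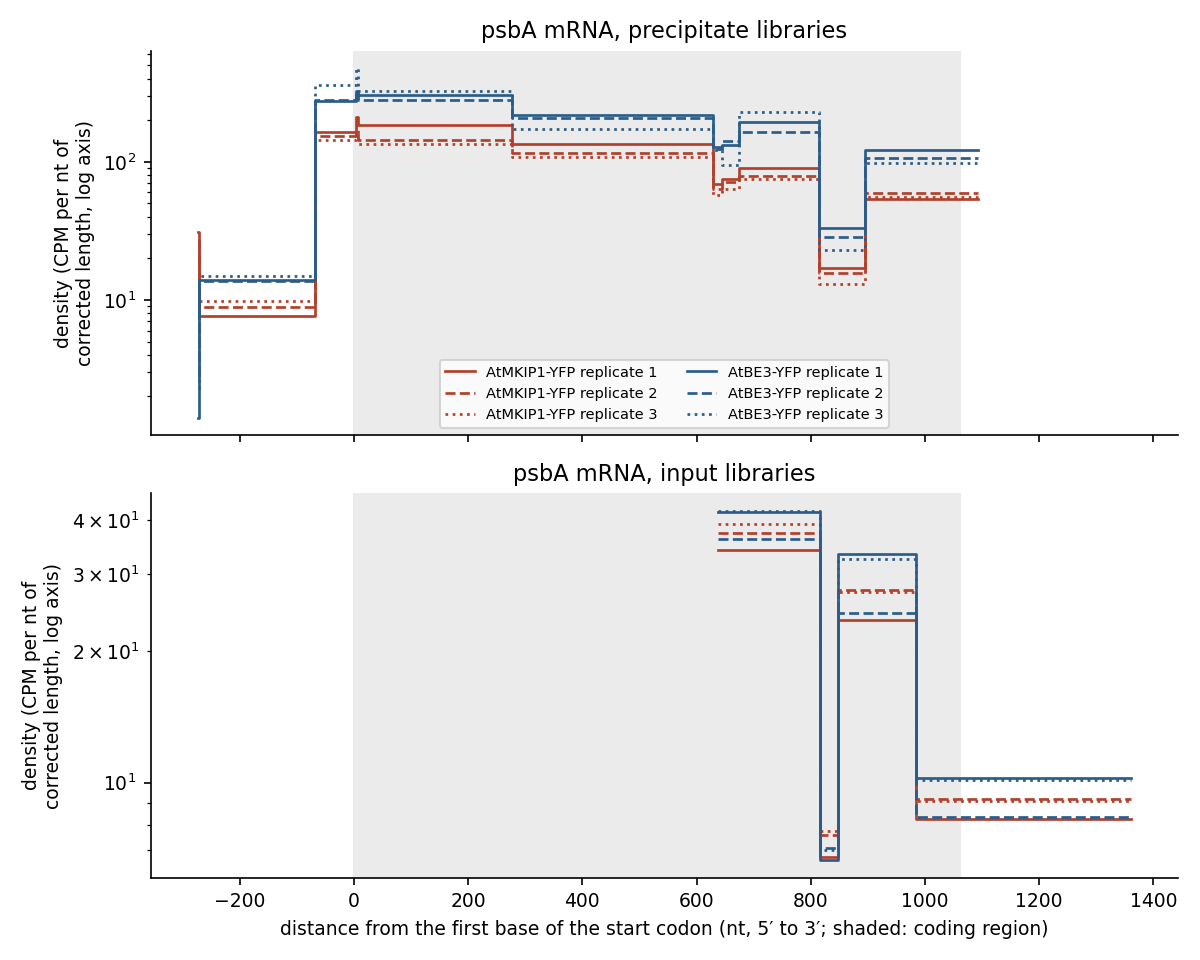
Density (CPM per nt of segment length plus read length less 1, log axis) along *psbA* for each library, against the distance in nt from the first base of the start codon, with the coding region shaded. All 6 precipitates have a higher mean in the leader segment than 5′ of it and a low one at nt 549 to 629, and all 6 inputs, which start at nt 806, have a low one at nt 596 to 628.

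Per mapped read, all parts of the mRNA were lower in the *At*MKIP1-YFP precipitates, leader, coding region and end alike. The single exception lay at the border with *trnK-UUU*. Of the 11 segments 10 were lower and 1 was higher at an adjusted p under 0.01 (edgeR's quasi-likelihood test with Benjamini-Hochberg adjustment over 553 segments). Over all segments tested, 15.2% were called lower and 72.3% higher. Segment borders were drawn on this same contrast in the same libraries, so the segment p-values are not an independent test. Outside the bound loci and *psbA*, 73 of 127 were lower and 10 higher; the split was 121 to 0 with TMM and 23 to 16 with libraries scaled on these segments. Without the segment at the *trnK-UUU* border, the *psbA* log2 fold changes ran from -1.27 to -0.69 with a median of -0.96. Their adjusted p ran from 3.38e-05 to 0.00255 in edgeR's test. All 10 lay at or below the median of the segments outside, with nt 1513 to 1715 at -0.6923 beside -0.6899. These segments adjoin and share reads, so they are not 10 separate results. Segment-wise, TMM and DESeq2 gave larger falls, of -3.43 to -2.85 and -3.27 to -2.69, beside outside medians of -2.85 and -2.69. The sum of counts as library size gave -1.99 to -1.41 beside -1.41. Falls were smaller with libraries scaled on the outside segments, -0.77 to -0.19 beside -0.19, and 1 of the 10 segments stayed lower. As first fitted, leaving out 1 library kept 8 to 10 of the 10 segments lower. The call was lost at nt 815 to 1167 without *At*MKIP1-YFP replicate 2 (adjusted p = 0.0131) or 3 (0.0108) or the control replicate 2 (0.0266), at nt 771 to 799 without the control replicate 2 (0.0116) or *At*MKIP1-YFP replicate 3 (0.0111), and at nt 1513 to 1715 without *At*MKIP1-YFP replicate 1 (0.0126) or 2 (0.0141).

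The leader segment had a log2 fold change of -0.98 (SE 0.19, adjusted p = 2.69e-04 in edgeR's test). The end segment had -0.95 (SE 0.18, adjusted p = 2.27e-04) and the trough -0.89 (SE 0.19, adjusted p = 5.61e-04). The segment upstream of the leader, with 1832, 2138 and 2350 CPM against 3333, 3280 and 3614 CPM, had -0.69 (SE 0.17, adjusted p = 0.00176). Differences among these segments were not tested.

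The largest fall, among segments with borders drawn on the same contrast, was at nt 630 to 770, directly 5′ of the trough. It had 16027, 14182 and 13432 CPM with *At*MKIP1-YFP and 34960, 29379 and 41002 CPM with *At*BE3-YFP, with no overlap, and a log2 fold change of -1.27 (SE 0.20, adjusted p = 3.38e-05 in edgeR's test). The smallest within the coding region was at nt 815 to 1167, with 52773, 44912 and 42365 CPM against 85370, 81682 and 67839 CPM and -0.75 (SE 0.20, adjusted p = 0.00255). As shares of all *psbA* counts, nt 630 to 770 took 8.94%, 9.22% and 9.25% with *At*MKIP1-YFP and 11.3%, 10.2% and 13.2% with *At*BE3-YFP. The longest segment took 29.4%, 29.2% and 29.2% against 27.6%, 28.3% and 21.9%. The groups did not overlap in either, but the control replicate 3 lay farthest out in both, and 0.1 is the smallest p of an exact permutation test on 3 against 3. Shares were free of overlap in only 3 of the 11 segments, these and the segment at the *trnK-UUU* border, and overlapped in all others. The *At*BE3-YFP replicate 3 had the fewest mapped reads of all 12 libraries, and its part in these share differences was not tested. Without it nt 630 to 770 had -1.14 (adjusted p = 5.58e-08 in edgeR's test).

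The segment that rose was nt 1716 to 1717, 2 nt at the annotated 3′ end of *trnK-UUU*, the tRNA gene whose intron encodes Maturase K. With *At*MKIP1-YFP it had 265, 338 and 238 counts and with *At*BE3-YFP 9, 29 and 11, with no overlap and a log2 fold change of 3.57 (SE 0.30, adjusted p = 9.04e-08 in edgeR's test). It was 1.44 with TMM (adjusted p = 4.27e-04), 1.64 in DESeq2 (1.58e-06) and 4.07 with libraries scaled on segments outside the bound loci (7.20e-09). The adjacent *trnK-UUU* segment, nt 1718 to 1750, had 2.71 (SE 0.30, adjusted p = 1.03e-06), and *trnK-UUU* as a whole had 49727 ± 6092 CPM against 6956 ± 1550 CPM (SD, n = 3). Reads of the 2-nt segment can also be counted in the segment upstream of the *psbA* leader. If all of them were, that segment would keep 591, 1078 and 1462 CPM with *At*MKIP1-YFP and 3277, 3167 and 3523 CPM with *At*BE3-YFP, a log2 ratio of means of -1.67 in place of -0.69. This calculation was added after the counts were seen.

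On the other side of *psbA*, the precipitate segment at nt 1 to 350 had 9597 ± 167 CPM with *At*MKIP1-YFP and 17145 ± 1037 CPM with *At*BE3-YFP (log2 fold change -0.84, SE 0.18, adjusted p = 4.70e-04 in edgeR's test). It spans the *trnH-GUG* gene and the spacer next to *psbA*. The opposite strand was nearly empty: a segment that covers all of *psbA* and 6837 nt in total had 65 to 147 counts in the precipitates, and one of 6879 nt had 60 to 104 in the inputs.

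**Figure D3:**
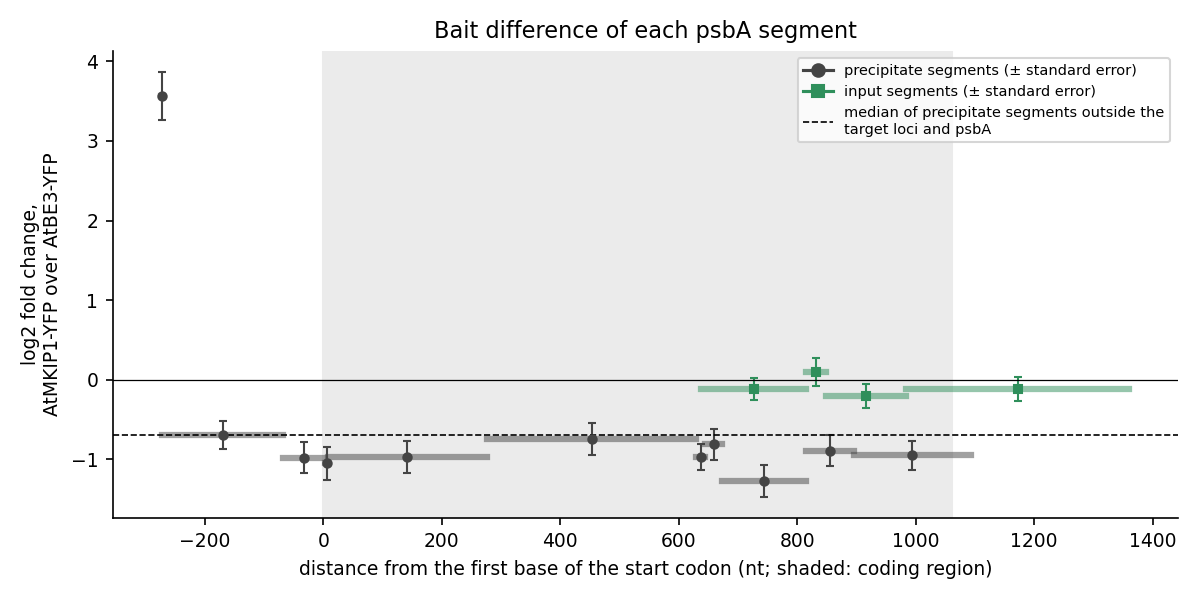
Log2 fold change of *At*MKIP1-YFP over *At*BE3-YFP ± standard error for the 11 precipitate and 4 input segments, against the distance in nt from the first base of the start codon; horizontal bars show segment length and the coding region is shaded. Precipitate segments lie between -1.27 and -0.69, at or below the dashed median of -0.69 of segments outside the bound loci, except the 2-nt segment at the *trnK-UUU* border at 3.57, and input segments lie between -0.20 and 0.09.

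As a whole gene, summing the 8 segments with 50% or more of their length in the coding region, *psbA* had 158067, 133669 and 126222 CPM in the *At*MKIP1-YFP precipitates and 275801, 254846 and 266805 CPM in the *At*BE3-YFP precipitates. The groups did not overlap. The log2 fold change was -0.93 (SE 0.18, adjusted p = 5.28e-05 in edgeR's test over 37 genes), where 56.8% of the genes tested were called lower and the median gene had -0.62. The sign held under each scaling tried, but the size and the call did not. With the sum of segment counts as library size the value was -1.66 (adjusted p = 1.10e-06). It was -0.43 (adjusted p = 0.0414) with libraries scaled on the segments outside the bound loci and *psbA*, -0.31 (adjusted p = 0.107) with TMM and -0.29 (adjusted p = 0.0161) in DESeq2. With the first of these scalings only nt 630 to 770 stayed lower among the segments, at -0.77 (adjusted p = 0.00396), and the outside segments had a median of -0.19. Over all 37 genes, 21 were lower and 9 higher as first fitted, 9 and 10 with that scaling, and 5 and 10 with TMM.

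In the inputs *psbA* had 11914, 13352 and 13745 CPM with *At*MKIP1-YFP and 15260, 12559 and 15199 CPM with *At*BE3-YFP over nt 461 to 806. The groups overlapped, and the log2 fold change was -0.14 (SE 0.13, adjusted p = 0.784 in edgeR's test over 61 genes, of which 0.0% were called; the unadjusted p was under 0.05 for 5 of them, and 1 passed in DESeq2). None of the 4 input segments was called, against 1.75% of the 572 tested; their smallest unadjusted p was 0.163, and DESeq2 called 6 of the 572 and none of the 4. Their log2 fold changes were -0.11 at nt 84 to 460, -0.20 at nt 461 to 595, 0.09 at nt 596 to 628 and -0.12 at nt 629 to 806, with an SE of at most 0.17.

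Per mapped read, the baits differed more in the precipitates than in the inputs. The interaction of bait and fraction over all 12 libraries gave *psbA* a log2 value of -0.79 (SE 0.20, adjusted p = 1.58e-04 in edgeR's test). It sets a sum over 1090 nt in the precipitates against one over 346 nt in the inputs, so the stretches are unlike. Of the 30 genes tested in both fractions, 66.7% were called lower in this way, and their median was -0.86, so that *psbA* lay near the middle. Taking summed segment counts as library size gave -1.51 (adjusted p = 1.92e-12). The value had the opposite sign with TMM (0.15, adjusted p = 0.555) and in DESeq2 (0.19, adjusted p = 0.290). It was -0.28 (adjusted p = 0.201) with libraries scaled on segments outside the bound loci.

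The 3′ part of the coding region had segments in both fractions, nt 549 to 799 in the precipitates and nt 461 to 806 in the inputs, and could be set side by side within each pool. The 2 stretches overlap but are not the same: the thin segment takes 81 of 251 nt in the precipitates and 33 of 346 nt in the inputs, so that the folds between fractions compare unlike stretches, while those between baits within a fraction do not. Its density was 63.2, 57.1 and 52.7 in the *At*MKIP1-YFP precipitates and 25.9, 29.0 and 29.9 in their inputs. In the *At*BE3-YFP pools it was 131.0, 115.6 and 137.1 in the precipitates and 33.2, 27.3 and 33.0 in the inputs. Per mapped read, the precipitate exceeded the input in 6 of 6 pools. The fold was 2.06 ± 0.347 with *At*MKIP1-YFP as bait and 4.11 ± 0.147 with *At*BE3-YFP (SD, n = 3), with no overlap between the baits. The control bait, an enzyme of starch synthesis, thus came with more *psbA* per mapped plastid read than *At*MKIP1-YFP did. Much more of the input was rRNA. In mean CPM, 16S and 23S rRNA had 344389 and 396360 in the *At*MKIP1-YFP inputs against 58560 and 166961 in the precipitates. For *At*BE3-YFP they had 367247 and 382421 against 65733 and 190348. The folds between fractions therefore hold per mapped read only, and folds outside rRNA were not tested. Restricted to the segments of these stretches, a choice made after the data were seen, the interaction was -1.01 (adjusted p = 2.29e-07 in edgeR's test). The precipitate log2 fold change was -1.15 (adjusted p = 5.12e-09 in the same test). Both restricted fits took mapped reads as library size, and no other scaling was run on them. The whole-gene interaction changed sign with TMM and in DESeq2. Most precipitate counts of the stretch came from nt 630 to 770, the segment with the largest fall. Its mean CPM was 14547 and 35114, beside 4687 and 8207 at nt 771 to 799 and 1810 and 3356 at nt 549 to 629. The interaction also sets the unlike stretches against each other.

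**Figure D4:**
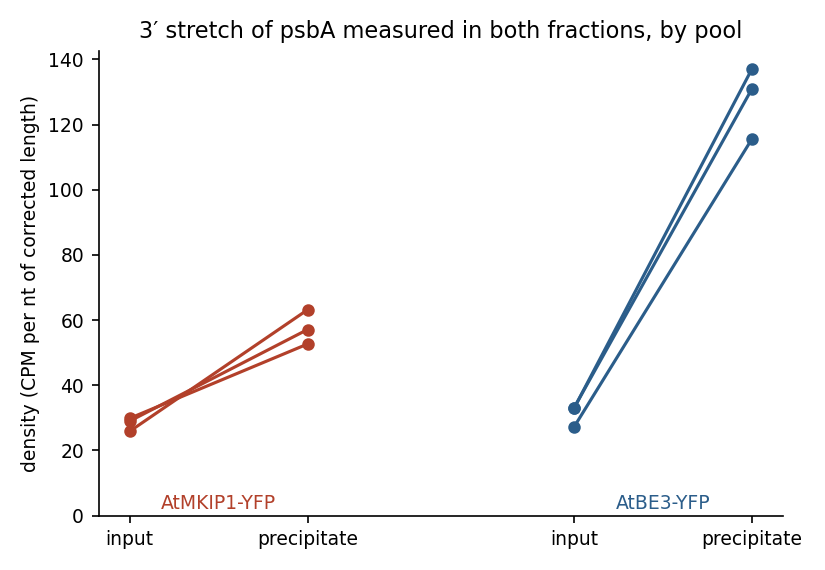
Density (CPM per nt of corrected length) of the 3′ stretch of *psbA* with segments in both fractions (nt 549 to 799 in precipitates, nt 461 to 806 in inputs), with input and precipitate of each pool joined by a line. The inputs lie between 25.9 and 33.2, the *At*MKIP1-YFP precipitates between 52.7 and 63.2 and the *At*BE3-YFP precipitates between 115.6 and 137.1.

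Most other mRNAs of the photosynthetic apparatus were also lower per mapped read in the *At*MKIP1-YFP precipitates, in numbers that changed with the scaling. Of the 5 further core genes of photosystem II, *psbB*, *psbC*, *psbD*, *psbE* and *psbF*, 3 had enough counts in the precipitates and 1 was called lower, *psbD*, which encodes the D2 partner of D1. *psbD* had 6912, 6561 and 6371 CPM against 12048, 11598 and 13481 CPM, a log2 fold change of -0.90 (SE 0.13, adjusted p = 8.81e-07 in edgeR's test). *psbB* and *psbC*, for the inner antenna proteins CP47 and CP43, had -0.36 and -0.43 and were not called, the former by a small margin (adjusted p = 0.0340 for the latter). The median of the 3 was -0.43, the *psbC* value, beside -0.62 over all 37 genes. *psbC* rests on a single precipitate segment of 4 nt. Of 10 genes for Rubisco, photosystem I, the cytochrome b6f complex and ATP synthase, 9 were tested and 9 were called lower, from -1.40 for *atpH* to -0.58 for *petB*, with a median of -0.89, where 21 of all 37 genes were called lower. With the sum of segment counts as library size, 3 of the 3 and 9 of the 9 were called lower, with medians of -1.15 and -1.61, and 27 of the 37. With libraries scaled on segments outside the bound loci, none of the 3 and 3 of the 9 were called lower, with medians of 0.08 and -0.39, and 9 of the 37. With TMM they were none and 3, with medians of 0.19 and -0.26, and 5 of the 37. In the inputs none of the 4 and none of the 10 tested genes of these lists was called, with medians of 0.13 and 0.06 beside 0.07 over all 61 genes.

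The genes whose levels followed *psbA* most closely over the 6 precipitates were *petD*, *psbD* and *rbcL*, by the root mean square difference of centred log2(CPM + 1). It was 0.083 for *petD*, which encodes subunit IV of the cytochrome b6f complex, 0.091 for *psbD* and 0.105 for *rbcL*, out of 36 genes compared. *petD* had 2817, 2668 and 2249 CPM with *At*MKIP1-YFP and 4890, 4961 and 5426 CPM with *At*BE3-YFP. *rbcL* had 32416, 29953 and 26826 CPM against 49556, 56576 and 55059 CPM. As all values are per mapped read of the same 6 libraries, the likeness includes what the libraries share.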

How the data were processed

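RNA of 12 libraries was measured. Per the labels and methods, the authors sequenced single ends with an 8-nt molecular identifier, trimmed with Cutadapt, kept reads of 18 to 60 nt, aligned with STAR to the TAIR10 plastid genome without its second inverted repeat, removed duplicates with UMI-tools, and split each strand with DiffSegR. Tool versions are not given in the sources used here. The deposited values are raw counts of reads per segment, and segment borders were drawn on the bait contrast, precipitates and inputs separately. Reads that span a border enter both segments. The authors' own fold changes and p-values for segments and regions were not used.

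Mapped reads from the deposited library statistics served as library sizes, with no scaling factor. edgeR 4.0.16 (R 4.3.3) fitted quasi-likelihood models to all segments, or to counts summed per gene, after filterByExpr, at an adjusted p under 0.01 (Benjamini-Hochberg). Shares were compared by exact permutation. Scripts were tested on simulated counts. Alternatives were TMM, summed counts as library size, DESeq2 1.42.0, no filter, a block, scaling outside the bound loci, each library left out, other gene sums and read lengths of 18 and 60 nt. Named are each *psbA* segment, its neighbours, 2 gene lists and the 3 genes nearest to *psbA*. Members, lists and bound loci were chosen with earlier results of these data known. Precipitate and input of 1 number came from 1 pool per the extraction protocol, and the deviations of these pairs correlated at -0.59 to 0.33. Each pool is 1 replicate; intervals between pools cover their spread only, and the labels do not say whether the pools of a line were grown apart.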

Additional observations from a re-analysis of the deposited data

Results flagged for a closer look

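The bait difference of *psbA* was not the same in precipitates and inputs: the interaction of bait and fraction was -0.79 on the log2 scale (SE 0.20, adjusted p = 1.58e-04 in edgeR's test over 30 genes), lower in the *At*MKIP1-YFP precipitates. The median of the 30 genes was -0.86, and the value was positive with TMM and in DESeq2, so that it is a difference per mapped read. It also rests on 1090 nt of *psbA* in the precipitates and only 346 nt in the inputs. Groups of 3 libraries were too small for a search for outlying samples.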

How the results depend on the processing

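With TMM the *psbA* precipitate log2 fold change was -0.31 (adjusted p = 0.107) and the excess of precipitate over input 0.15 (adjusted p = 0.555); in DESeq2 they were -0.29 (0.0161) and 0.19 (0.290), and with libraries scaled on segments outside the bound loci and *psbA* -0.43 (0.0414) and -0.28 (0.201). The last setting left 1 *psbA* segment lower in place of 10. Leaving out each library gave -1.03 to -0.87 for the precipitates, -0.89 to -0.70 for the excess, -0.23 to -0.08 for the inputs, 8 to 10 lower segments and 1 higher segment in each case. With the replicate number as a block the values were -0.94, -0.14 and, with the pool as the block, -0.80, and 9 segments were lower, since nt 815 to 1167 lost its call (adjusted p = 0.0261); whether a number marks a shared batch of the baits is not given in the labels, and deviations of same-numbered libraries correlated at -0.21 to 0.20 in the precipitates and -0.46 to -0.07 in the inputs. At a read length of 18 nt the leader-to-coding ratio of *At*MKIP1-YFP was 1.54, and the ratio of densest to thinnest segment had means of 19.7 and 23.0 in place of 11.9 and 14.0. The lower limits of the read shares were 7.88% and 15.7% in the precipitates and 1.16% and 1.26% in the inputs. The segment upstream of the leader moved from -0.69 to -1.67 without reads that could cross from *trnK-UUU*. The cause of these shifts was not tested beyond the construction of each setting. Taking summed counts for library size, the gene value was -1.66 and the excess -1.51. That setting, no filter, segments wholly inside the gene and the length-weighted mean ended no call of the gene values.

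Borders drawn on the bait contrast, and counts shared between segments, limit the reading of short segments and of segment p-values. The input gives no value for the leader or the 5′ part of the coding region, and precipitates and inputs differ in fragmentation.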
